A study of Mus musculus with 2 samples.

Results

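miR-210 is a microRNA made from the mouse gene Mir210, and the array carried a probe for each arm of its hairpin, named mmu-miR-210-3p and mmu-miR-210-5p and here miR-210-3p and miR-210-5p. Both probes were found by name, and they are 2 of the 1900 miRNA probes on the array, each printed in a single spot. Levels came from ID-8 tumours, a mouse ovarian cancer line carrying luciferase, grown in the peritoneal cavity of C57BL/6 mice that were 5 weeks old at purchase. From day 14 the mice of one group received control IgG and those of the other group bevacizumab, in both groups at 5 mg/kg, 2 times a week, into the peritoneal cavity, and they were killed at day 42. Bevacizumab is a humanized antibody raised against human VEGF-A, and the arrays do not show whether it blocked VEGF-A of the mouse. There was 1 array per group, labelled with Cy5, and the labels do not say whether its RNA came from 1 animal or several. The submitters' texts name tumour RNA in one place and RNA from cells in another. With 1 array per group no test between the groups was possible, no p-value is given, and every difference compares these 2 arrays. In such bulk RNA, fewer cells of a type and less RNA per cell cannot be told apart.

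miR-210 is the miRNA most regularly induced by low oxygen. Hypoxia-inducible factors (HIF) act on its promoter, and the 3p arm, the main arm loaded into Argonaute, in human cells represses ISCU, an iron-sulfur cluster scaffold needed for mitochondrial respiration, and EFNA3, an ephrin that restrains endothelial tube formation. The comparison therefore addresses whether a hypoxia-responsive miRNA differed in tumours given an antibody against an angiogenic factor.

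The mature sequences are shown because each probe reads 1 of them, and the capitals mark the seed, bases 2 to 8 from the 5′ end, which pairs with target transcripts. Sequences and positions are from RefSeq on GRCm38.p6.
miR-210-3p: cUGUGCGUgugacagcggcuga
miR-210-5p: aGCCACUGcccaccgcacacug
The 3p arm lies at chr7:141221407-141221428 and the 5p arm at chr7:141221445-141221466, both on the minus strand, within the hairpin at chr7:141221384-141221493. No other gene of the RefSeq table overlaps the hairpin. The nearest protein-coding genes are Rassf7, 2726 bp away on the side of lower coordinates, and Gm51460, 6713 bp away on the other side. In the hairpin below, capitals mark the 5p arm (bases 28 to 49) and the 3p arm (bases 66 to 87).
Mir210 hairpin: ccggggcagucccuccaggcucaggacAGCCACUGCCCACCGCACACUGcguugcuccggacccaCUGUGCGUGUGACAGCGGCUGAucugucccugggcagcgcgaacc
Both arms are 22 bases long and rich in G and C, at 63.6% for 3p and 68.2% for 5p. Neither seed occurs in any other of the 1679 mature mouse miRNAs in that table, so no other miRNA matched to the array shares it.

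miR-210-3p (mmu-miR-210-3p) was somewhat dimmer on the bevacizumab array than on the control array. With control IgG its spot read 267 intensity units, where blank spots averaged 72.8 ± 0.828 (SD over spots after leaving out the outer 5% at each end). With bevacizumab it read 334 units, where blanks averaged 185 ± 4.03. The signal above blank was therefore 194 units with control IgG and 149 units with bevacizumab. Both signals lay far above the spread of the blanks, by 235 and 37.1 of their SDs. The ratio of these signals, with no scaling between the arrays, was a log2 difference of -0.38, or 1.30-fold lower.

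miR-210-5p (mmu-miR-210-5p), the arm mostly discarded as the passenger strand, had a like difference at a lower brightness. Its spot read 111 units with control IgG and 218 units with bevacizumab. Above blank these were 38.2 and 33.2 units, or 46.2 and 8.23 SDs of the blanks, and both passed the detection limit of the blank mean plus 2 SD. The unscaled log2 difference was -0.21, or 1.15-fold lower. Both arms were thus dimmer on the bevacizumab array before any scaling, 5p by less than its error.

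The only error that the arrays give is the spread between spots. Repeat spots of 5 control probes printed in 8 spots each gave an SD of 0.16 for the log2 difference of 1 spot pair, and the spread of the blanks adds 0.039 for miR-210-3p and 0.18 for miR-210-5p. Combined, these gave an SD of 0.16 for the 3p arm and 0.24 for the 5p arm. The unscaled 3p difference lay more than 2 such SDs from 0, whereas that of 5p was within 1 SD of 0. Here 0 means equal unscaled signal, and the median of all probes detected on both arrays lay at log2 0.82. Neither SD includes labelling, hybridisation or differences between animals.

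The arms differed from each other by -0.18 in that log2 ratio (3p minus 5p), less than the spot error of 0.29 for such a difference. Among 208 other hairpins with both arms detected on both arrays, the arms differed by a median of 0.79 regardless of sign, and 19 hairpins had arms closer to each other than those of miR-210. After normalization, which compresses dim probes, the miR-210 arms differed by -0.24 and 51 of the 208 hairpins were closer.

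The 2 arrays as wholes set the scale for these values. Of the 1900 probes, 1416 were detected with control IgG and 940 with bevacizumab, with 917 detected on both arrays. Before any scaling the median of those 917 was 1.77 times as high on the bevacizumab array (log2 0.82), so both miR-210 arms went against the typical probe. The 3p log2 ratio lay 1.20 below that median, with 191 of the 917 probes lower, and the 5p log2 ratio 1.03 below it, with 207 lower. The ratio for the 5 control probes in 8 spots (S-Probe26, S-Probe27, S-Probe28 and both probes named Spike Control) was higher still, from 4.61 to 5.11.

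**Figure D1:**
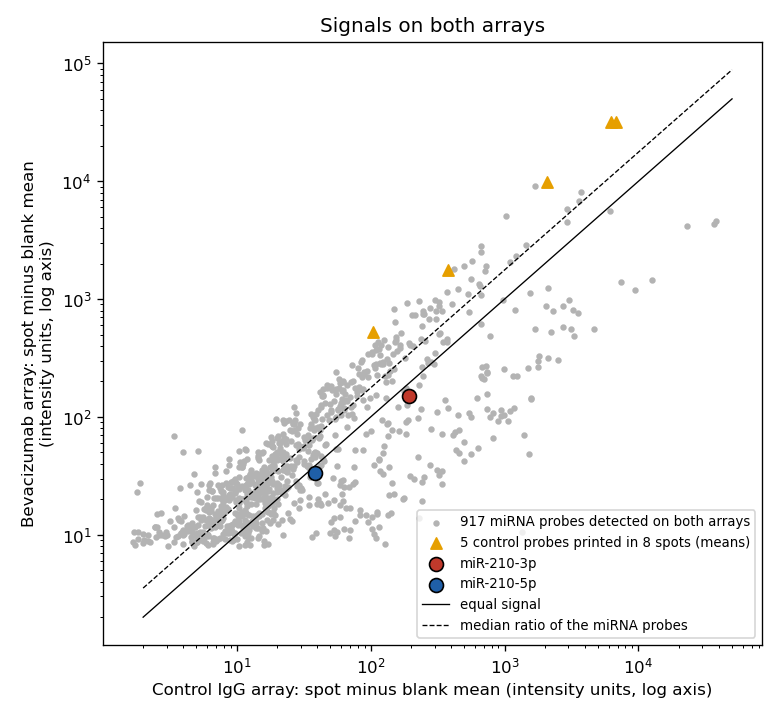
Blank-subtracted signals on the control IgG array (x axis) and the bevacizumab array (y axis), both in intensity units on log axes. Grey points are the 917 miRNA probes detected on both arrays, triangles the 5 control probes, and lines mark equal signal and the median ratio of 1.77. Both miR-210 arms lie just under the line of equal signal, between a dense band above it and a scattered group of probes far below it.

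After background correction with an offset of 50 and quantile normalization, neither arm reached the 2-fold size used here. Normalized log2 levels of miR-210-3p were 7.96 with control IgG and 7.59 with bevacizumab, a log2 difference of -0.37 (1.29-fold lower). Those of miR-210-5p were 6.47 and 6.34, a difference of -0.13 (1.09-fold lower), which is within its spot error. In this setting the share at least 2-fold lower among the 917 was 11.6%, and the share at least 2-fold higher 10.5%. The median of the 917 was 0.14, so 3p lay 0.51 and 5p 0.27 below it, with 156 and 204 probes lower than each.

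The size of the difference, and whether it passed 2-fold, rested on how the arrays were scaled to each other, but the sign was below 0 for both arms in all 10 settings of this comparison; plain subtraction of each spot's local background, given at the end, is the exception. In the authors' deposited table, which divides the blank-subtracted signal by a factor 2.41 times as high for the bevacizumab array, miR-210-3p was listed at 385 and 123 intensity units and miR-210-5p at 75.7 and 27.3. These are 3.14-fold and 2.77-fold lower on the bevacizumab array. Of the 917, the table has 297 (32.4%) lower by 2-fold or more and 27 (2.94%) higher. Scaling to the 5 control probes gave log2 differences of -2.62 for 3p and -2.44 for 5p, with 69.7% of the 917 lower by 2-fold or more and 0.545% higher. Relative to the median of all probes, the 3p difference (log2) was 1.20 below in both of these settings, as in the unscaled signals, because a common factor leaves the order of the probes as it was.

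**Figure D2:**
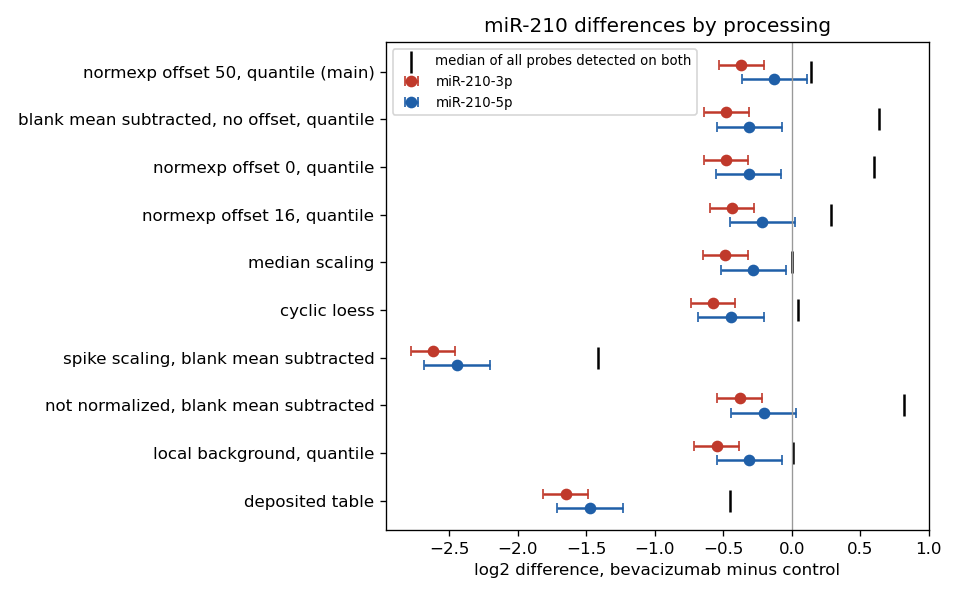
The log2 difference, bevacizumab minus control, of miR-210-3p and miR-210-5p (x axis) in each of 10 processing settings (y axis); bars are ±1 SD from repeat spots and blank spots, and black ticks the median of all probes detected on both arrays. Both arms lie to the left of 0 and of the black tick in every setting; the 3p differences range from -0.37 to -2.62.

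Probes of like brightness gave a comparison that needs no scaling. For each arm the 100 probes nearest in mean log2 signal over both arrays were taken. For miR-210-3p these spanned 107 to 279 units, around its own 170 units. Their median log2 ratio was 0.95, and the central 90% ran from -3.52 to 1.85. miR-210-3p, at -0.38, was 2.52-fold below that median, with 31 of the 100 lower and 69 higher. The 100 probes had few values near it. Only 8 were within 0.5 of its log2 ratio, while 64 were higher by more than that and 28 lower by more.

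For miR-210-5p the 100 probes spanned 29.3 to 44.5 units around its own 35.6 units. Their median log2 ratio was 0.54 and their central 90% ran from -2.92 to 1.76. The arm, at -0.21, was 1.67-fold below the median, with 30 of the 100 lower. Here 13 of the 100 lay within 0.5, 59 above that window and 28 below it. Each arm therefore lay in the lower part of the probes of its brightness but inside their central 90%.

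**Figure D3:**
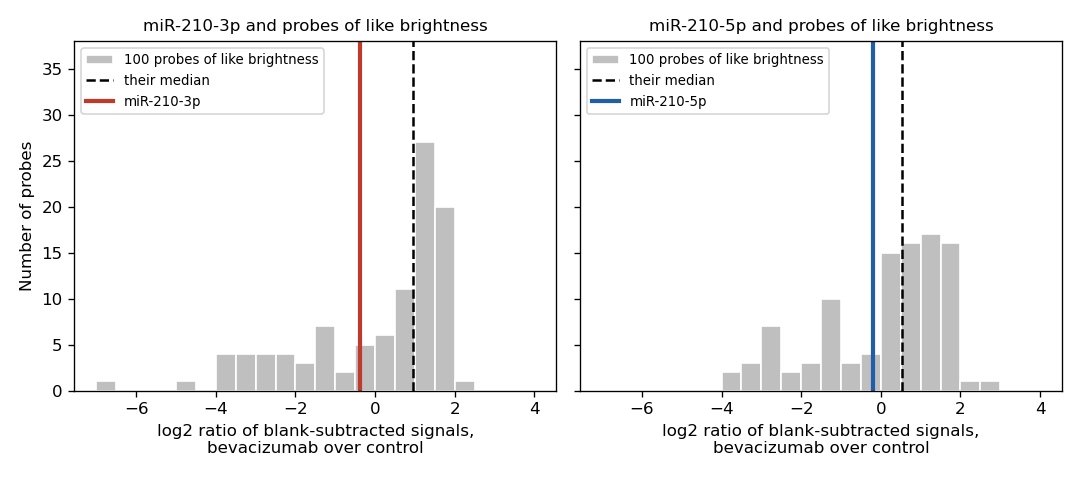
Number of probes (y axis) by log2 ratio of blank-subtracted signals, bevacizumab over control (x axis), for the 100 probes of like brightness to each arm. Coloured lines mark miR-210-3p (-0.38) and miR-210-5p (-0.21), and dashed lines the medians of 0.95 and 0.54; both arms fall in the sparse stretch between a peak above 0 and a broad tail below.

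The choice of brightness measure moved the size. With neighbours taken by the control array alone miR-210-3p was 1.51-fold below the median of its 100 neighbours, with 40 of them lower. With neighbours taken by the bevacizumab array alone it was 2.64-fold below, with 24 lower. Both sets hold only probes detected on both arrays. By the control array alone, 98 of the 100 detected probes nearest to miR-210-3p were detected on the bevacizumab array, as were 81 of the 100 nearest to miR-210-5p. The 5p arm thus stayed detected at a brightness at which 19 of 100 probes did not. On the bevacizumab array 58 of the 100 nearest to miR-210-3p read higher than it, and 62 of the 100 nearest to miR-210-5p read higher than that arm.

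The miRNAs nearest to miR-210-3p over the 2 arrays, by distance between log2 blank-subtracted signals, were miR-5128, miR-181a-5p, miR-3473a, miR-365-3p and miR-8102. Their distances ran from 0.19 to 0.42 and their log2 ratios from -0.58 to -0.060. miR-181a-5p, a regulator of lymphocyte development, is also in the hypoxia-related list below, and read 182 and 175 units above blank. Likeness over 2 arrays says only that these spots were about as bright on each. For miR-210-5p the nearest probes were miR-7046-3p, miR-6367, miR-8093, miR-7649-5p and miR-1943-3p, at distances of 0.15 to 0.28.

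Differences between the arrays went with base composition, more closely among miRNAs numbered under 500 and let-7 than among later numbers. The miR-210 arms lie at the GC-rich end. A sequence was matched by name for 1618 of the 1900 probes (85.2%). Across the 785 such probes detected on both arrays, Pearson's r between GC content and the normalized log2 difference was 0.45, and Spearman's rho 0.36; these are probes on the same 2 arrays, not independent replicates, and GC content goes with the catalogue number described below. Pearson's r was 0.59 among the 202 of the 785 numbered under 500 or belonging to let-7, and 0.20 among the 583 later numbers. Of 28 probes below 40% GC, 57.1% were at least 2-fold lower on the bevacizumab array. Split by number, 16 of 21 under 500 or in let-7 and 0 of 7 later ones were at least 2-fold lower. From 40% to below 45% GC, 20 of 29 and 0 of 10 were, and from 45% to below 50%, 16 of 39 and 6 of 35 were. Of 163 probes from 60% to below 65% GC, where miR-210-3p lies, 4.29% were, and of 189 probes at 65% or more, where miR-210-5p lies, 2.65% were.

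Against probes of their own GC content the arms stood lower than against all probes. Of 331 probes within 5 percentage points of miR-210-3p in GC content, with a median normalized log2 difference of 0.18, 22 were lower than miR-210-3p (percentile 6.65). The value of -0.37 was still inside their central 90%, which ran from -0.58 to 1.38. For miR-210-5p, 27 of 211 such probes were lower (percentile 12.8; median 0.21). When the 50 nearest in brightness were taken among probes of like GC content, a comparison added after seeing the data, 4 of 50 were lower than miR-210-3p, which was 2.97-fold below their median, and 7 of 50 were lower than miR-210-5p, 1.96-fold below.

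**Figure D4:**
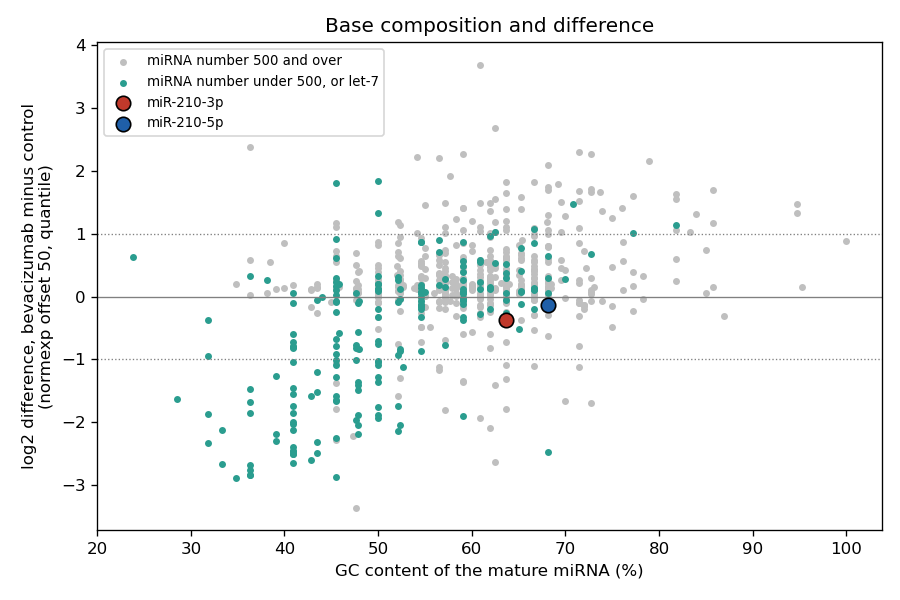
Normalized log2 difference, bevacizumab minus control (y axis), against GC content of the mature miRNA in percent (x axis) for 785 probes detected on both arrays; green points are miRNAs numbered under 500 and let-7, grey points the later numbers, and dotted lines mark 2-fold. The low values gather at the GC-poor end among the early numbers, while miR-210-3p (63.6%) and miR-210-5p (68.2%) lie in the lower part of the GC-rich cloud.

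The number in a miRNA's name, which follows the order of discovery, also went with the difference. Among probes detected on both arrays, 32.8% of 244 others numbered under 500 or belonging to let-7 were at least 2-fold lower. For 671 later ones the share was 3.87%. In the normalized values miR-210-3p, an early number, was near the middle of the early class, with 106 of 244 lower. With local background 39 of the 244 were lower than miR-210-3p. Among the 52 early probes of like GC content it was low, with 4 of 52 lower in the normalized values and 8 of 52 in the unscaled ratios. Of 10 other probes numbered 200 to 220, 2 were lower by 2-fold or more and none higher by that size, in a group too small to set apart from the 11.6% and 10.5% of all 917, and both of those were lower than miR-210-3p. Within the 10, the lowest was miR-200b-3p (log2 -1.67), an epithelial miRNA with 36.4% GC, and the highest miR-204-3p (log2 0.96), with 61.9% GC.

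Other miRNAs tied to hypoxia were mostly lower than miR-210. A list of 17 miRNAs reported as induced by low oxygen and 6 that target HIF or proteins around it was drawn from textbook knowledge, with earlier results of these data known. Of the 23, 20 were detected on both arrays and 3 on the control array alone. After quantile normalization 16 of the 20 were lower by 2-fold or more and none higher by that size. Their median log2 difference was -1.92, beside 11.6% lower, 10.5% higher and a median of 0.14 over all 917. All members of the list are numbered under 500. In that class, let-7 included and miR-210 left out, 32.8% of 244 probes were lower by 2-fold or more, with a median of -0.12. From 45% to below 50% GC, where the list has its median of 47.6%, 41.0% of 39 probes of the class were. With local background in place of blank spots the list had 6 lower and 7 higher (5.23% of all probes each way), and a median of 0.62. miR-210-3p was higher than 17 of the 20, and with local background higher than 7 of them.

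In the induced group, 12 of the 16 seen on both arrays were lower by 2-fold or more, beside 11.6% of all 917 and 32.8% of the early class. The lowest was miR-21a-5p, a growth-promoting miRNA, at 6.75-fold, followed by miR-26b-5p at 6.32-fold, miR-195a-5p at 6.08-fold and miR-322-5p at 5.27-fold. The last is the counterpart of human miR-424, which in human endothelial cells represses the cullin CUL2 and so stabilizes HIF. miR-27a-3p was 4.11-fold lower, miR-26a-5p 3.98-fold, miR-27b-3p 3.89-fold and miR-93-5p 3.32-fold. miR-107-3p, which targets the HIF partner ARNT in human cells, was 2.66-fold lower, its near-identical relative miR-103-3p 2.56-fold, miR-23b-3p 2.13-fold and miR-23a-3p 2.01-fold. The 4 members within 2-fold were miR-24-3p, miR-181a-5p, miR-181b-5p and miR-181c-5p, of which miR-181c-5p was the highest (log2 -0.090). With local background, 7 of the 12 turned above 0: miR-21a-5p, then the highest of the list (log2 2.65), miR-27a-3p (1.91), miR-23a-3p (1.80), miR-93-5p (1.18), miR-195a-5p (1.17), miR-322-5p (1.07) and miR-103-3p (0.63). The other 5 were still lower by 2-fold or more there: miR-27b-3p (log2 -2.35), miR-23b-3p (-2.08), miR-107-3p (-1.79), miR-26a-5p (-1.61) and miR-26b-5p (-1.41). In that setting miR-27b-3p, miR-23b-3p and miR-107-3p thus went the opposite way to their near-identical relatives miR-27a-3p, miR-23a-3p and miR-103-3p. Local background was brighter than the spot itself for 49 probes with control IgG and 22 with bevacizumab, so subtracting it left less than 0. Whether members of the hypoxia-related list were among these probes was not tested.

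Each of the 4 HIF-targeting miRNAs seen on both arrays was lower by 2-fold or more, beside the same 11.6% of all 917 and 32.8% of the early class. miR-20a-5p and miR-17-5p, of the cluster whose miRNAs repress HIF1A in human cells, were 4.53-fold and 3.68-fold lower. miR-20b-5p, which targets HIF1A and VEGFA in human cells, was 4.14-fold lower, and miR-199a-5p, which represses Hif1a in rat heart cells, 4.42-fold. With local background 1 of the 4 was, miR-20b-5p (log2 -1.62); miR-199a-5p was at -0.93, and miR-17-5p (0.87) and miR-20a-5p (0.74) turned above 0, for a median of -0.095. Within these families sequences are near-identical, and a probe may also read a relative. The 19 list members with a matched sequence and detection on both arrays had GC contents of 33.3% to 54.5% (median 47.6%), all below the GC content of both miR-210 arms, and the part of base composition in the contrast with miR-210 was not tested.

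**Figure D5:**
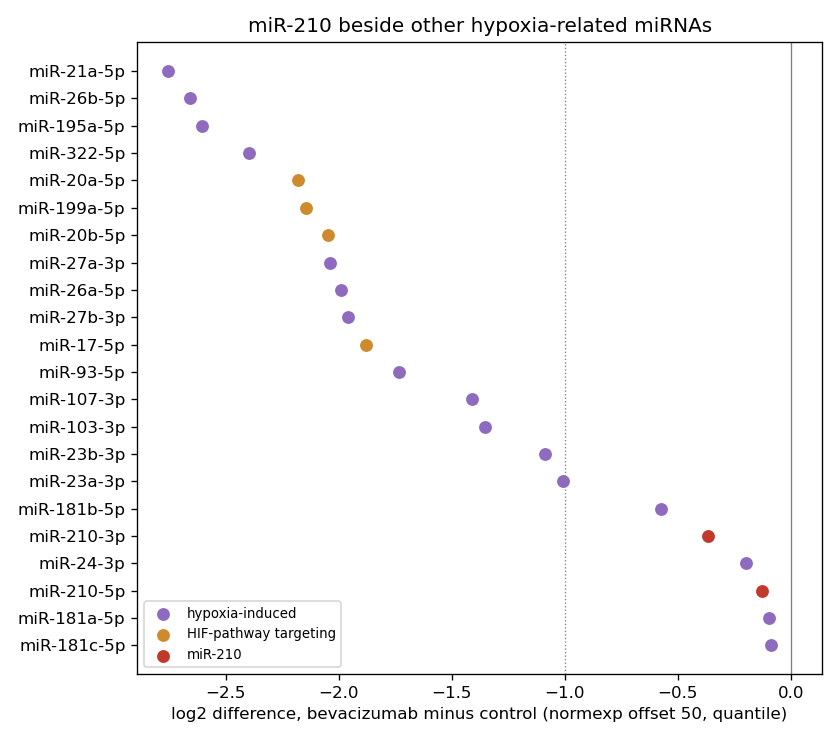
Normalized log2 difference, bevacizumab minus control (x axis), of the 20 hypoxia-related miRNAs detected on both arrays and of both miR-210 arms (y axis, ordered by value); the dotted line marks 2-fold lower. All 22 points lie below 0, from miR-21a-5p at -2.75 to miR-181c-5p at -0.090, with miR-210-3p and miR-210-5p among the 5 values nearest 0.

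Summed signals of cell type markers were lower on the bevacizumab array, while single markers went both ways. In these sums of blank-subtracted signal, probes below the blank level count as 0. The 5 epithelial miRNAs (the miR-200 family) summed to 549 units with control IgG, where all 5 were detected, and to 40.05 units with bevacizumab, where 1 was, miR-200b-3p at 31.4 units, and 2 lay below the blanks. The 2 endothelial miR-126a probes summed to 997 and 86.5 units, with both detected on both arrays. Sums for 4 stromal and mural miRNAs, all detected on both arrays, were 3276 and 464 units, but miR-214-3p of that group was higher with bevacizumab (87.2 and 140 units, normalized log2 difference 0.39). The 5 leukocyte miRNAs summed to 282 and 80.0 units, with 5 detected under control IgG and 2 under bevacizumab. Of those 2, miR-150-5p was higher with bevacizumab (21.1 and 44.2 units, normalized log2 difference 0.33) and miR-223-3p lower (76.9 and 27.9 units, -0.81). The 3 detected under control IgG alone had normalized differences of -1.50 (miR-142a-3p), -1.18 (miR-142a-5p) and -0.11 (miR-155-5p). The 2 erythroid miRNAs summed to 1699 and 150 units, with 1 of them detected on the bevacizumab array, and the 3 striated muscle miRNAs to 2090 and 232 units, with 2 detected there. The hepatocyte miR-122-5p was not detected on either array. With local background the median differences of the epithelial (0.38, 1 miRNA), endothelial (0.13) and muscle (0.72) markers detected on both arrays were above 0. Those of the stromal and mural (-0.19), leukocyte (-0.38) and erythroid (-3.56, 1 miRNA) markers were below 0. The part of these cell types in the miR-210 values was not tested.

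The surroundings of the spots were measured as well. The local background around the miR-210-3p spot was 199.5 units with control IgG and 258 units with bevacizumab, against medians of 69.2 and 161 over all miRNA probes. It was thus raised around this spot on both arrays, so that subtracting it removes part of what the blank spots leave: the spot exceeded it by 67.8 and 76.1 units. With each spot's own local background subtracted, the log2 ratio of miR-210-3p was 0.17 and that of miR-210-5p 0.52, both above 0. They were still below the neighbours for which this could be computed, with 15 of 86 lower than 3p and 20 of 94 lower than 5p. With blank spots of the same printed block (28 spots) in place of all blanks, the ratios were -0.37 and -0.18.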

How the data were processed

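The deposited scanner files hold, per the file headers, a median intensity of each spot and of its local background at 635 nm, with 3 scan gains related by least squares; these intensities are linear and neither background-corrected nor normalized. The deposited value table holds the authors' processed intensity. Set against the scanner values it is the blank-subtracted signal divided by a factor per array, not centred per miRNA, with the direction of each column given by its sample. Its software is not given in the sources used.

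Spots were corrected by normexp in limma 3.58.1 (R 4.3.3), taking the 896 blanks for negative controls and adding an offset of 50. Quantile normalization then covered all 1900 miRNA probes. The offset compresses differences of dim miRNAs. Unscaled ratios used the spot minus the blank mean. The script was tested on simulated data. miRNAs were named by a rule: both arms, the 5 nearest probes, the hypoxia-related miRNAs past 2-fold and the extremes of that list. The rule also took the extremes numbered 200 to 220 among probes detected on both arrays. The nearest probes of 5p, miR-24-3p, miR-181a-5p, miR-181b-5p, miR-200a-3p, miR-205-5p and miR-212-3p were added after their values were seen. Single cell type markers are also named outside this rule. The members and lists were chosen with earlier results of these data known, and so were the 5 control probes. Background correction, offset, normalization, detection limit and neighbour choice were varied. The number of arrays limits the precision.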

Additional observations from a re-analysis of the deposited data

How the results depend on the processing

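No paired analysis was possible because each group has 1 array, and no array could be left out. The miR-210-3p difference (main -0.37) moved by more than its spot error with cyclic loess (-0.57), local background (-0.55), the deposited table (-1.65) and spike scaling (-2.62), and that of miR-210-5p (-0.13) with cyclic loess (-0.44), the table (-1.47) and spike scaling (-2.44). Settings for 5p, and the choice of neighbours by GC content, were added after seeing the data. Relative to probes of like brightness, the 3p ratio (-1.33) moved to -0.59 with brightness from the control array alone and to -1.57 with GC content matched. The 5p ratio (-0.74) moved to -0.45 with 50 neighbours, -1.13 with brightness from the bevacizumab array alone and -1.001 with local background. miR-210-5p was detected on both arrays at limits of 2, 3 and 5 SD, by blanks of its own block and in the table. The hypoxia-related list had 16 members at least 2-fold lower and 0 higher, and 6 and 7 with local background; its median (-1.92) was then 0.62, and it was -2.14 with blank subtraction, -2.12 with an offset of 0, -2.21 with median scaling, -2.46 without normalization, -3.73 in the table and -4.70 with spike scaling. Over all 917 miRNAs, 106 were at least 2-fold lower and 96 higher, against 639 and 5 with spike scaling, 297 and 27 in the table, 48 and 48 with local background, 148 and 373 without normalization, 156 and 306 with an offset of 0, 157 and 314 with blank subtraction, 136 and 155 with an offset of 16, 113 and 53 with median scaling, and 129 and 61 with cyclic loess. The causes were not tested.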
